A study of Mus musculus with 12 samples.

Results

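Transcript levels of 8 endoderm lineage transcription factors, *Nkx2-1*, *Sox2*, *Hnf4a*, *Hnf4g*, *Foxa1*, *Foxa2*, *Gata4* and *Gata6*, were followed in mouse lung tumors with and without knockdown of *Filip1l*. The factors were taken by name from a list drawn up with earlier results of these data known, and all 8 are among the 15687 genes measured. RNA was sequenced from 12 subcutaneous tumors of mTc11 cells, a mouse lung cancer line, grown in Matrigel in male C57BL6/J mice that were 8 weeks old at injection and collected on day 24. CTL tumors (n = 6) came from cells with a scrambled shRNA (shControl), and *Filip1l*-knockdown tumors (n = 6) from cells with a lentiviral shRNA against *Filip1l*. All lines had been through puromycin selection. The knockdown cells were a mixture of clones chosen for low FILIP1L protein, the sources used here do not state which of the available shRNA constructs the sequenced tumors carried, and the labels do not say whether any mouse gave more than 1 tumor. The comparison asks how these factors differ in RNA level between tumors with and without the knockdown.

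The epithelia of lung, stomach, intestine, liver and pancreas all arise from endoderm, and overlapping sets of transcription factors keep them apart. FOXA and GATA factors open chromatin in early endoderm and remain in use in most of its derivatives. SOX2 marks the anterior gut tube and later the esophagus, forestomach and airways, NKX2-1 marks lung and thyroid, and the nuclear receptors HNF4A and HNF4G drive absorptive programs in liver and intestine. In lung adenocarcinoma, loss of NKX2-1 is known to be accompanied by gastric and intestinal gene programs that depend on FOXA and HNF4 factors.

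Levels are normalized counts, the reads on a gene divided by a tumor's size factor, so that a given gene can be compared across tumors. Between 17834745 and 32419578 reads lay on the listed genes of a tumor, and 3 reads, the floor below which a level is not read, were worth 2.59 to 4.48 normalized counts. Changes are given as log2 fold changes, knockdown minus CTL, on the scale of the normalized count plus 1, and are called log2 changes. That of *Filip1l* itself was -0.26 (limma adjusted p = 0.00998). Its groups overlapped, with 1983 to 2542 normalized counts in CTL tumors and 1670 to 2184 in knockdown tumors. A set of 6 epithelial markers summed to between 149310 and 196100 normalized counts among the CTL tumors and between 215093 and 394086 in knockdown tumors, although the epithelial cadherin gene *Cdh1* had a log2 change of 0.01 (limma adjusted p = 0.950). Of 8 fibroblast markers, 2 fell and 0 rose in limma (also 0 at an unadjusted p under 0.05), and their sum ran from 160117 to 260482 normalized counts among the CTL tumors and from 74987 to 253054 in knockdown tumors. Knockdown replicate 1 held both the lowest epithelial and the highest fibroblast sum of its group. All 5 neutrophil markers and 7 of 8 skeletal muscle markers rose. The part that these markers play in the results below was not tested. The factors that passed are also given relative to *Cdh1*, a scale added after seeing the data. Since *Cdh1* itself barely changed, this scale cannot show the part of the epithelial shift. The other 5 epithelial markers rose, with log2 changes from 0.44 (*Krt18*) to 1.65 (*Krt19*), and levels relative to them were not computed.

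Of the 8 factors, *Hnf4g* and *Gata4* rose in the knockdown tumors, *Sox2*, *Foxa2* and *Gata6* fell, and *Hnf4a*, *Foxa1* and *Nkx2-1* did not pass the test. A gene passed at an adjusted p under 0.05 in limma on log2 of the normalized count plus 1, adjusted over all genes. The 5 that passed are 62.5% of the factors, beside 41.9% of all genes tested. The 2 that rose compare with 21.1% of all genes and the 3 that fell with 20.7%. With the further threshold of an absolute log2 change over 1, *Hnf4g* and *Gata4* remained on the higher side (background 6.20%) and *Sox2* on the lower (background 3.97%), and the background in either direction was 10.2%. The groups did not overlap at all for the 5 factors that passed, against 21.5% of all genes (10.6% higher and 10.9% lower). The median log2 change of the 8 was 0.12 and that of all genes 0.0078. These are bulk tumors, in which fewer cells of a type and less RNA per cell cannot be told apart.

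**Figure D1:**
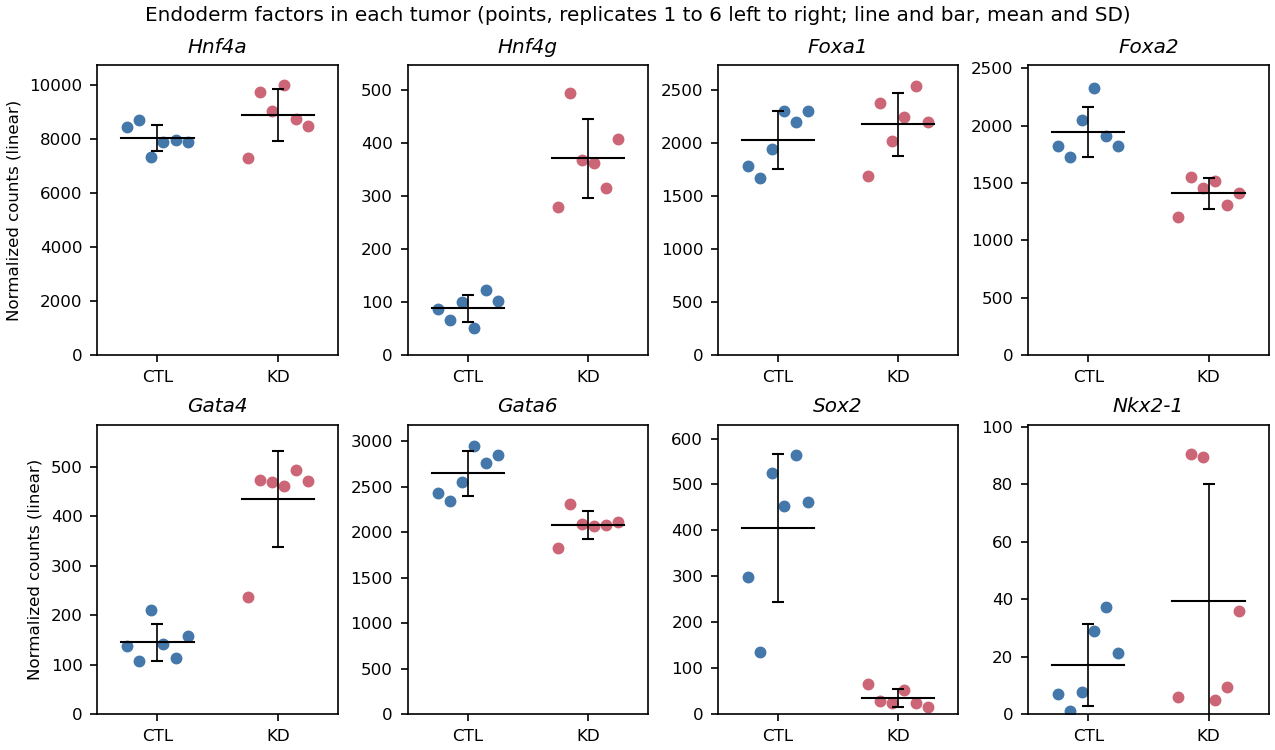
Normalized counts (y axis, linear from 0) of the 8 factors in the 6 CTL and 6 knockdown (KD) tumors, 1 point per tumor with replicates 1 to 6 from left to right, a line at the mean and a bar of 1 SD, cut at 0 where it would go below. The groups separate without overlap for Hnf4g, Foxa2, Gata4, Gata6 and Sox2, and they overlap for Hnf4a, Foxa1 and Nkx2-1.

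*Sox2* (ENSMUSG00000074637, + strand, chr3:34650405-34652461 in GRCm38), which specifies anterior foregut and airway progenitors, showed the widest change of the 8. Its level was 134 at the lowest, 458 at the median and 563 at the highest in CTL tumors, and 15.7, 27.1 and 66.6 normalized counts in knockdown tumors. Every knockdown tumor therefore lay below every CTL tumor. The CTL tumor nearest to the knockdown group was replicate 2, and the knockdown tumor nearest to the CTL group was replicate 1. The group means were 406 ± 161 and 35.6 ± 19.7 normalized counts (mean ± SD, 6 tumors per group), 11.4-fold lower in the knockdown. *Sox2* fell by 3.50 on the log2 scale (standard error, SE, 0.38, limma adjusted p = 7.40e-06). A two-sided exact permutation test, which runs through all 924 arrangements of the group labels, gave p = 0.00216, the smallest it allows. *Sox2* lies inside *Sox2ot*, a long noncoding gene on the same strand, so reads of that transcript that cross the *Sox2* exon cannot be told apart from its own. *Sox2ot* itself was not analysed here. Relative to *Cdh1* the log2 change of *Sox2* was -3.51.

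The 250 bases before the RefSeq start of *Sox2* and before the outermost of the 3 RefSeq starts of *Foxa2* are shown because both factors were lower in every knockdown tumor. The bases are from RefSeq on GRCm38.p6, written 5′ to 3′ along the strand of the gene, and capitals mark a match to a searched motif. The *Sox2* window is chr3:34649745-34649994 on the + strand, with a GC content of 72%. The *Foxa2* window is chr2:148046970-148047219 on the - strand, with a GC content of 50.8%, and the other *Foxa2* windows have 67.2% and 54.4%.
Sox2: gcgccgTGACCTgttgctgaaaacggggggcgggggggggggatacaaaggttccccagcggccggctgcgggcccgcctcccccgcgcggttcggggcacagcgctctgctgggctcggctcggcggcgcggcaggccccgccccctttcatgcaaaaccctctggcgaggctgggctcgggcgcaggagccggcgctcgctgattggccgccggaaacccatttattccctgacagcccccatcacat
Foxa2: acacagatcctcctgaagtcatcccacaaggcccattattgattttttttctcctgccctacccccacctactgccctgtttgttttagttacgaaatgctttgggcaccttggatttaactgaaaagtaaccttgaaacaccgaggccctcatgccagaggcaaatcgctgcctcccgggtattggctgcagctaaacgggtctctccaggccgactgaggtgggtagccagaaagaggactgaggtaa
The capitals in the *Sox2* window, 244 to 239 bases before the start, are TGACCT, the reverse complement of AGGTCA, a short site bound by many nuclear receptors, HNF4 among them. It was found on either strand in 14.0% of the 32851 windows of the same length in the table. The *Foxa2* window shown held no match to the motifs listed here, searched on both strands: CAAAGTCCA for HNF4 (0.384% of windows), the short site AGGTCA already given, AGATAA for GATA factors (9.99%), TGTTTAC for FOXA (3.17%), ACAATGG for SOX (3.02%) and CACTTGA for NKX2 (2.68%). Windows were matched for 5 of the 8 factors, 8 windows in all, and not for *Hnf4g*, *Gata4* or *Gata6*. Outside the windows shown, AGATAA lay 52 to 47 bases before the first RefSeq start of *Hnf4a*. It also lay 183 to 178 bases before another RefSeq start of *Foxa2*. GTAAACA, the reverse complement of TGTTTAC, lay 141 to 135 bases before the RefSeq start of *Foxa1*. These RefSeq starts lie inside the gene spans given below. The *Hnf4a* match straddles the start of its span, and the other matches lie within theirs. These matches describe letters and were not tested as binding sites.

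*Nkx2-1* (ENSMUSG00000001496, - strand, chr12:56531958-56536908), the lineage factor of lung and thyroid epithelium, was low and varied widely between tumors, from 1 to 87 reads. It ran from 0.947 through a median of 14.5 to 37.3 normalized counts among the CTL tumors, and from 4.90 through 22.7 to 90.6 in knockdown tumors. The value of CTL replicate 2 was a single read, below the floor of 3 reads. Knockdown replicates 2 and 3 stood high, with 90.6 and 89.7 normalized counts, and the other 4 knockdown tumors lay within the range of the CTL tumors, 3 of them below the CTL median. The means were 17.2 ± 14.3 and 39.4 ± 40.9 normalized counts (mean ± SD, 6 tumors per group), and the log2 change was 0.88 with a 95% interval from -0.95 to 2.71 (limma adjusted p of 0.443 and exact permutation p of 0.413). Without CTL replicate 2 the log2 change of *Nkx2-1* was 0.35 and without knockdown replicate 1 it was 1.21, neither of which passed.

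*Sftpb*, a surfactant protein gene that NKX2-1 is known to activate, was highest in the same pair of knockdown tumors. It had 760.02 and 715 normalized counts in knockdown replicates 2 and 3, where *Nkx2-1* had 90.6 and 89.7. In knockdown replicates 1 and 4 *Sftpb* had 18.2 and 17.6 normalized counts, where *Nkx2-1* had 6.05 and 4.90. Among CTL tumors the highest value of each gene was in replicate 5, with 94.1 normalized counts of *Sftpb* and 37.3 of *Nkx2-1*. Both genes were lowest in CTL replicate 2, with 0.947 normalized counts each. The other tumors did not follow 1 order, since CTL replicate 1 had 7.00 normalized counts of *Nkx2-1* and 26.0 of *Sftpb*, while CTL replicate 4 had 28.9 and 17.9. Knockdown replicate 5 had 9.51 normalized counts of *Nkx2-1* and 84.7 of *Sftpb*. *Napsa*, another gene of lung epithelium, had a different order, highest in knockdown replicate 6 with 624 normalized counts. It had 520 in knockdown replicate 1, 484 and 534 in replicates 2 and 3, and 262 and 343 in replicates 4 and 5.

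*Hnf4a* (ENSMUSG00000017950, + strand, chr2:163506808-163572910), a nuclear receptor that governs hepatocyte and enterocyte gene expression, was the most abundant of the 8, also per exon length. It had 7341 at the lowest, 7950.3 at the median and 8729 at the highest in CTL tumors, and 7299, 8890.5 and 10002 normalized counts in knockdown tumors. The groups overlapped, with knockdown replicate 1 the lowest of all 12 tumors and CTL replicate 2 above knockdown replicates 1 and 6, while 5 of 6 knockdown tumors were above the CTL median. The log2 change was 0.14 with a 95% interval from -0.02 to 0.29 (limma adjusted p of 0.152 and exact permutation p of 0.104). Without knockdown replicate 1 it was 0.19 and passed (limma adjusted p = 0.0183), the only change of a call among the 8 factors under any setting tried. *Hnf4aos*, an antisense gene that overlaps *Hnf4a*, was not analysed here. The strand setting of the counting is not given in the sources used here, so the reads of such pairs cannot be told apart.

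*Hnf4g* (ENSMUSG00000017688, + strand, chr3:3508030-3658052), the paralog of *Hnf4a* best known from intestinal epithelium, rose. It ran from 51.8 through a median of 93.1 to 122 normalized counts among the CTL tumors and from 279 through 366 to 495 in knockdown tumors. The highest CTL tumor, replicate 5, stayed below the lowest knockdown tumor, replicate 1. The means were 88.2 ± 25.8 and 372 ± 75.1 normalized counts (mean ± SD, 6 tumors per group), 4.21-fold higher in the knockdown. The log2 change was 2.09 (SE 0.20), with a limma adjusted p of 2.23e-06 and an exact permutation p of 0.00216. Relative to *Cdh1* it was 2.09.

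*Foxa1* (ENSMUSG00000035451, - strand, chr12:57540628-57546916), a forkhead pioneer factor of endoderm, did not pass. Its level was 1663 at the lowest, 2068 at the median and 2299 at the highest in CTL tumors, and 1683, 2221 and 2532 normalized counts in knockdown tumors. The ranges overlapped, with 4 of 6 knockdown tumors above the CTL median and replicates 2 and 5 above every CTL tumor. The log2 change was 0.10 with a 95% interval from -0.13 to 0.33 (limma adjusted p of 0.484 and exact permutation p of 0.400). After removal of GC and length trends it was 0.00088.

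*Foxa2* (ENSMUSG00000037025, - strand, chr2:148042877-148046969), the paralog of *Foxa1* that is required for definitive endoderm, fell. Its level was 1725 at the lowest, 1869 at the median and 2328 at the highest in CTL tumors, and 1204, 1432 and 1555 normalized counts in knockdown tumors. All 6 knockdown tumors lay below all 6 CTL tumors, though the step was small, 1.38-fold between the means. *Foxa2* fell by 0.46 on the log2 scale (SE 0.08), with a limma adjusted p of 0.000395 and an exact permutation p of 0.00216. Its log2 change was -0.47 relative to *Cdh1* and -0.61 after removal of GC and length trends.

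*Gata4* (ENSMUSG00000021944, - strand, chr14:63198922-63271692), a zinc finger factor of proximal intestine, stomach and heart, rose. It ran from 108 through a median of 140.3 to 210 normalized counts among the CTL tumors and from 237 through 470.1 to 493 in knockdown tumors. Knockdown replicate 1 stood apart with 237 normalized counts, the other 5 lay between 460.2 and 493, and CTL replicate 3 was the highest control. The means were 145 ± 36.8 and 434 ± 97.0 normalized counts (mean ± SD, 6 tumors per group), 3.00-fold higher in the knockdown. The log2 change was 1.57 (SE 0.20), with a limma adjusted p of 2.28e-05 and an exact permutation p of 0.00216, and without knockdown replicate 1 it was 1.74. Over genes of chromosome 14 as a whole the median log2 change was 0.39, and with each chromosome's median removed *Gata4* had 1.19 (limma adjusted p = 0.000285). Relative to *Cdh1* its log2 change was 1.56.

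Heart muscle also expresses *Gata4*, and 4 cardiac markers summed to between 75.8 and 524 normalized counts among the CTL tumors and between 179 and 1675 in knockdown tumors. Of these *Myl7* rose, and *Nppa*, *Tnni3* and *Myh6* did not pass. The log2 change of *Myl7* was 4.48, and its groups did not overlap. Knockdown replicates 5 and 6 had the highest cardiac sums, 1427 and 1675 normalized counts, and held 493 and 472 normalized counts of *Gata4*. Knockdown replicate 4 had the lowest sum of its group, 179, and held 460.2 normalized counts of *Gata4*, and CTL replicate 4 had a sum of 524 and held 143. The part of heart muscle in the change of *Gata4* was not tested.

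*Gata6* (ENSMUSG00000005836, + strand, chr18:11052064-11085635), the relative of *Gata4* that acts in early endoderm, lung and stomach, fell. Its level was 2340 at the lowest in CTL replicate 2, with a median of 2655 and a highest value of 2946 normalized counts, against 1828, 2082 and 2309 in knockdown tumors. The groups did not overlap, with knockdown replicate 2 just below CTL replicate 2. *Gata6* fell by 0.34 on the log2 scale (SE 0.07), with a limma adjusted p of 0.00115 and an exact permutation p of 0.00216, 1.27-fold between the means. Relative to *Cdh1* its log2 change was -0.35. The antisense gene *1010001N08Rik*, whose annotated span overlaps the start of *Gata6*, went from 70.7 to 49.7 normalized counts (log2 change -0.49, limma adjusted p = 0.0253), and without strand the reads of the overlap cannot be assigned.

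**Figure D2:**
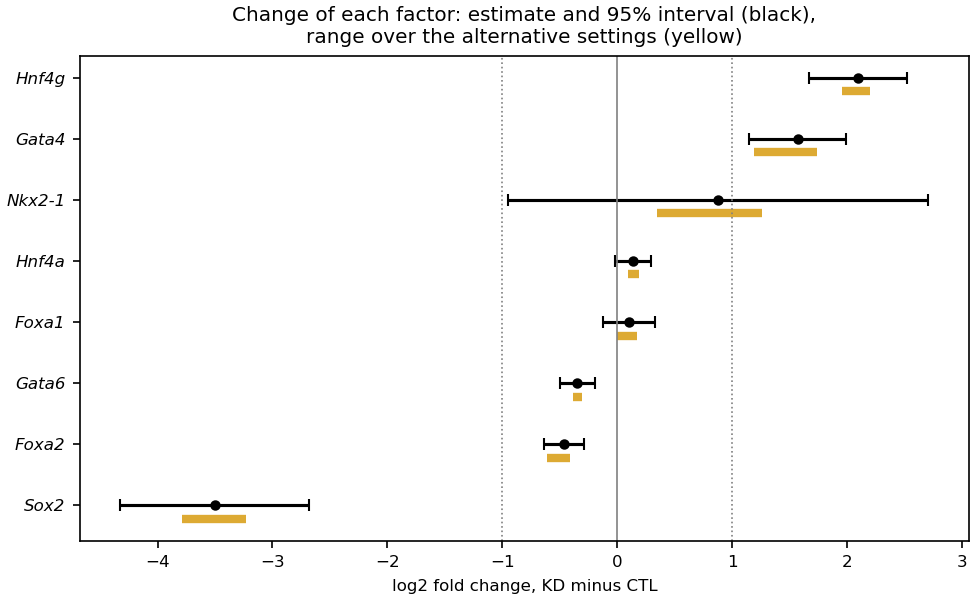
Log2 change, knockdown minus CTL (x axis), of each factor (rows), with the estimate and its 95% interval in black and the range over 23 other settings of the processing in yellow. Dotted lines mark an absolute log2 change of 1. Hnf4g, Gata4 and Sox2 lie beyond them with the whole interval, and the interval of Nkx2-1 spans -0.95 to 2.71.

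The tumors that stood at the edge of their group did so for several factors at once. CTL replicate 2 was the lowest CTL tumor for 6 of the 8 factors, *Nkx2-1*, *Sox2*, *Foxa1*, *Foxa2*, *Gata4* and *Gata6*, and the highest for *Hnf4a*. Knockdown replicate 1 was the lowest knockdown tumor for 6, *Hnf4a*, *Hnf4g*, *Foxa1*, *Foxa2*, *Gata4* and *Gata6*, and the highest for *Sox2*. Knockdown replicate 2 was the highest of its group for 4 factors, *Nkx2-1*, *Hnf4g*, *Foxa2* and *Gata6*. Knockdown replicate 1 was also the tumor with the lowest epithelial marker sum of its group, 215093 normalized counts, and with the highest fibroblast sum, 253054. The 5 factors that passed also did so without this tumor.

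To set the factors beside each other, levels were divided by exon length and are given as normalized counts per kb. In CTL tumors the order was *Hnf4a* at 1668, *Foxa2* at 820.2, *Foxa1* at 609.5, *Gata6* at 406, *Sox2* at 197, *Gata4* at 37.1, *Hnf4g* at 33.5 and *Nkx2-1* at 6.05 normalized counts per kb. The ranges of *Gata4* and *Hnf4g* overlapped, and no other neighbours in this order did. In knockdown tumors the order of these levels was *Hnf4a* at 1841, *Foxa1* at 653, *Foxa2* at 594, *Gata6* at 319, *Hnf4g* at 141, *Gata4* at 111, *Sox2* at 17.3 and *Nkx2-1* at 13.9 normalized counts per kb. There the ranges of *Foxa1* and *Foxa2*, of *Hnf4g* and *Gata4*, and of *Sox2* and *Nkx2-1* overlapped. *Sox2* thus moved from above *Gata4* and *Hnf4g* in CTL tumors to beside *Nkx2-1*.

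Within each family the balance of paralogs shifted, as a share of the family's summed level per kb. These shares were chosen after the values of the single factors were known, so they restate those values on another scale and add no independent evidence. *Hnf4g* made up 1.98% ± 0.62 of the *Hnf4* transcripts in CTL tumors and 7.10% ± 0.98 in knockdown tumors (mean ± SD, 6 tumors per group), so that *Hnf4a* remained the main form in both. *Foxa2* made up 56.1% ± 2.83 of the *Foxa* family in CTL tumors and 46.3% ± 3.18 in knockdown tumors, while *Foxa1* went from 41.6% ± 2.84 to 50.7% ± 2.62. In the *Gata4*, *Gata5* and *Gata6* family, *Gata4* went from 3.09% ± 0.70 to 8.88% ± 1.52 and *Gata6* from 33.9% ± 2.41 to 25.9% ± 1.96. None of these 5 shares overlapped between the groups.

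*Gata5*, the remaining member of the *Gata* family in endoderm, held the largest share, 63.0% ± 2.31 in CTL tumors and 65.2% ± 2.26 in knockdown tumors, with overlapping ranges. Its level was 2467 ± 120 and 2654 ± 314 normalized counts (mean ± SD, 6 tumors per group), with a log2 change of 0.10 (limma adjusted p = 0.320). *Foxa3*, the remaining *Foxa* paralog, had 69.1 ± 13.8 and 79.2 ± 25.8 normalized counts, with a log2 change of 0.15 (limma adjusted p = 0.606). For *Foxa3* the sign turned after removal of GC and length trends, to -0.05.

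**Figure D3:**
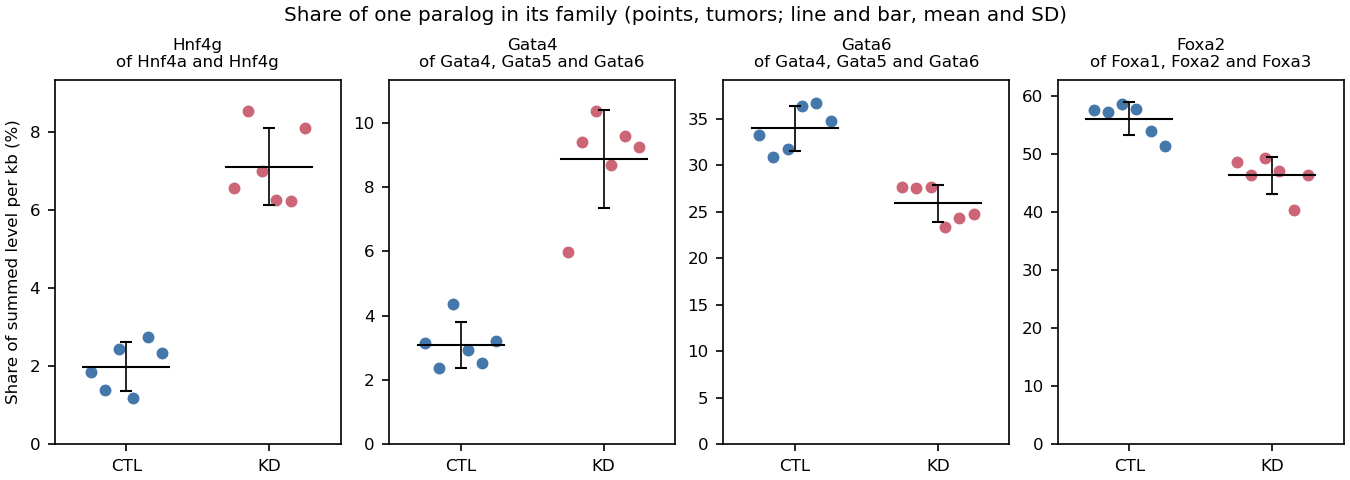
Share (y axis, percent, linear from 0) of one paralog in the summed level per kb of its family in the 6 CTL and 6 knockdown (KD) tumors, 1 point per tumor with a line at the mean and a bar of 1 SD. Hnf4g goes from 1.98% to 7.10% and Gata4 from 3.09% to 8.88%, and Gata6 and Foxa2 go down, from 33.9% to 25.9% and from 56.1% to 46.3%.

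The genes whose pattern over the 12 tumors was nearest to each factor were found by the root mean square difference of their centred log2 levels, among genes whose mean reached 50 normalized counts. For *Sox2* they were *Pax6*, an eye, brain and pancreas factor (0.50), the coagulation factor gene *F5* (0.56) and the kinase gene *Nrk* (0.56), beside a spread of 1.88 for *Sox2* about its own mean. For *Hnf4g*, with a spread of 1.10, they were *C4bp* (0.21) and the innate immune receptor genes *Naip5* and *Naip6* (0.24 each), close copies between which reads may have been split. For *Gata4*, with a spread of 0.86, they were *Elf3*, an epithelial ETS factor (0.20), *BC030870* (0.21) and the tight junction gene *Tjp3* (0.21). For *Nkx2-1*, with a spread of 1.62, the nearest were *Aadac* (1.00), *Sult1d1* (1.02) and *Hsd17b2* (1.04), which is a loose match.

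The factors with small changes had near neighbours of small change. For *Foxa2* these were *Sart1*, *Lrrc14* and *Cavin1* (0.083 to 0.085, beside a spread of 0.27), and for *Gata6* *Fut8*, *H2afj* and again *Cavin1* (0.075 to 0.079, beside 0.20). For *Foxa1* they were *Pax9* (0.083), *Glul* (0.086) and *Bcam* (0.099), beside a spread of 0.19. *Pax9* starts within 1 Mb of both *Foxa1* and *Nkx2-1* on chromosome 12. For *Hnf4a* they were *Slc27a4* (0.049), *Selenoi* (0.058) and *Tada2b* (0.073), beside 0.14. These likenesses describe 12 tumors in 2 groups, and a gene of similar group difference will be near by that alone.

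The measured genes within 1 Mb of the start of a factor were counted, a window chosen after the values were seen. Around *Sox2* there were 6, of which 0 passed in limma and 1, on the lower side, had an unadjusted p under 0.05, with log2 changes from -0.14 to 0.39. All lay on its upstream side, the nearest *Dnajc19* with 0.21. Around *Gata4* there were 14, of which 7 rose and 4 fell, with a median log2 change of 0.32. These included *Fdft1*, a cholesterol synthesis gene (0.97), and *Fam124a* (2.43), while the kinase gene *Blk*, on the other side, had -4.16. *Gata4* therefore lay among genes that moved in both directions, and *Sox2* among genes that did not pass. Over all genes tested 21.1% rose and 20.7% fell, and the median log2 change of chromosome 14, which holds *Gata4*, was 0.39.

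Around *Foxa2* 1 of 7 neighbours rose and 1 fell, the latter *9030622O22Rik*, whose start lies 0.0068 Mb from that of *Foxa2* (log2 change -0.63, limma adjusted p = 0.00747). Around *Hnf4a* 6 of 26 rose and 3 fell, and around *Gata6* 1 of 9 rose and 3 fell, among them *Greb1l* with -1.67. Of 7 neighbours of *Nkx2-1* 0 rose in limma (1 at an unadjusted p under 0.05) and 4 fell, and of 5 neighbours of *Foxa1* 1 rose and 2 fell. Both sets hold *Pax9*, *Prps1l3* and *Mipol1*, so their counts are not separate. *Hnf4g* had 0 measured neighbours within 1 Mb.

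**Figure D4:**
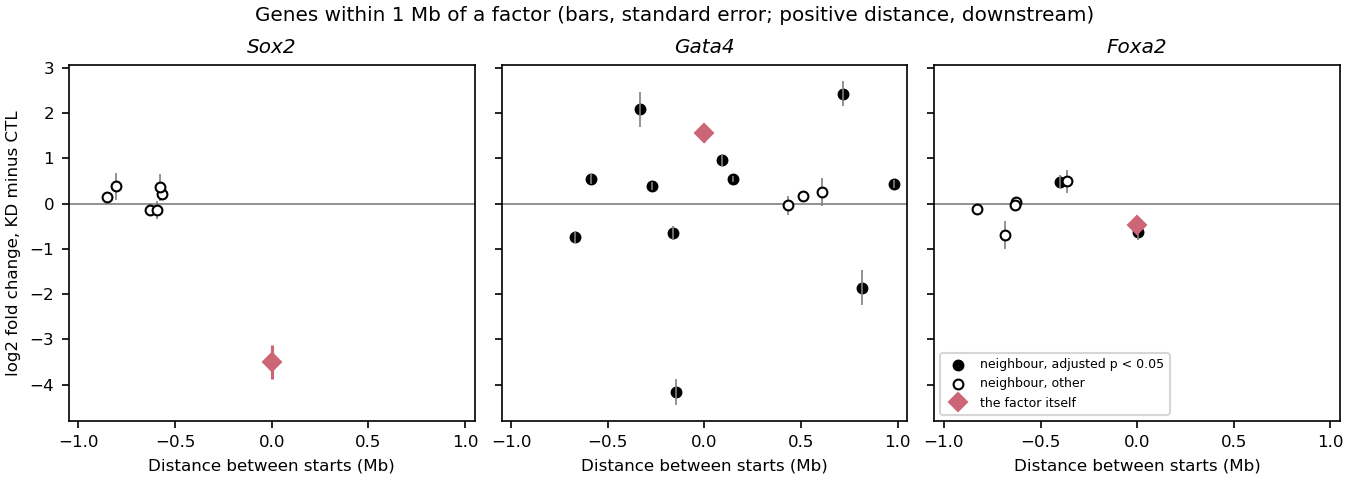
Log2 change, knockdown minus CTL (y axis, bars of 1 SE), of measured genes within 1 Mb of Sox2, Gata4 and Foxa2 against the distance between gene starts (x axis, Mb, positive downstream of the factor), with the factor itself as a red diamond. The 6 neighbours of Sox2 lie between -0.14 and 0.39 while Sox2 is at -3.50, and those of Gata4 spread from -4.16 to 2.43 around Gata4 at 1.57.

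The factors were then read beside other genes of endoderm. The background for the counts of each list is that 21.1% of all genes tested rose and 20.7% fell. Of 27 further intestinal, hepatic and pancreatic factors that were measured, 14 rose, 4 fell and 9 did not pass, with a median log2 change of 0.48. *Isx*, an intestinal homeobox gene, went from 1.28 ± 1.18 normalized counts, under the floor of 3 reads, to 40.4 ± 11.02 (mean ± SD, 6 tumors per group). *Nr5a2*, a nuclear receptor of gut and liver, had a log2 change of 3.18 (limma adjusted p = 1.28e-06), and *Cdx2*, the master regulator of intestinal identity, 2.15 (limma adjusted p = 1.24e-07). *Prox1*, a hepatic and lymphatic factor, had -2.88 and *Pdx1*, the factor of pancreas and distal stomach, -2.28. *Sox9* did not pass (-0.14).

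Of 15 further lung and airway factors measured, 1 rose, 6 fell and 8 did not pass, with a median log2 change of -0.16. Over all genes tested 21.1% rose and 20.7% fell. The ciliated cell factor *Foxj1* had -1.85, *Irx2* -1.74 and *Etv5*, an ETS factor of alveolar type II cells, -1.06. Of 10 cofactors of the GATA, HNF4 and NKX2-1 proteins, 0 rose in limma (also 0 at an unadjusted p under 0.05), 4 fell and 6 did not pass. The coactivator gene *Ppargc1a* had -1.88, and *Wwtr1*, which encodes TAZ, -0.82. *Zfpm1*, a GATA partner, had -0.20 (limma adjusted p = 0.0287), a value that was -0.01 with chromosome medians removed and 0.08 with GC and length trends removed, and *Zfpm2*, its relative, did not pass with -0.15.

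Among genes linked to HNF4 in enterocytes and liver, 16 of 20 measured rose in limma, 0 fell (also 0 at an unadjusted p under 0.05) and 4 did not pass, with a median log2 change of 2.41. All 16 were also past the fold threshold, beside the 6.20% of all genes given above. The list was drawn up with earlier results of these data known, so this count adds no independent evidence. *Muc13*, a membrane mucin of the gut, had 83.4 ± 55.1 normalized counts among the CTL tumors and 3390 ± 1147 in knockdown tumors (mean ± SD, 6 tumors per group), a log2 change of 5.53 (limma adjusted p = 2.08e-07). *Apoa4*, a chylomicron protein, had 5.13 and *Cdhr2*, a cadherin of the brush border, 4.54. The summed level of the 20 genes ran from 24334 to 36098 normalized counts among the CTL tumors and from 77249 to 148903 in knockdown tumors, lowest in knockdown replicate 1, which was also the lowest of its group for *Hnf4g*, *Hnf4a* and the epithelial marker sum. Among the other knockdown tumors, replicate 4 had the highest *Hnf4a*, 10002 normalized counts, with a sum of 106958. Replicate 6 had the highest sum, 148903, with 8507 normalized counts of *Hnf4a*. Replicate 2 had the highest *Hnf4g*, 495 normalized counts, with a sum of 141899, and replicate 5 had 316 with a sum of 142336. *Lgals4* alone averaged 44131 normalized counts in knockdown tumors, so abundant genes weigh most in the sum. The relation of the sum to *Hnf4a* or *Hnf4g* was not tested.

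Genes of lung epithelium were mixed, with 4 of 13 higher, 3 lower and 6 not passing, beside 21.1% of all genes higher and 20.7% lower. *Sftpb* had a log2 change of 2.80, with knockdown replicates 2, 3 and 6 above every CTL tumor. It passed narrowly (limma adjusted p = 0.0463) and no longer did so under 12 of 23 other settings. *Aqp5*, a water channel of alveolar type I cells and glands, had -1.74, and *Napsa*, an aspartic protease of type II cells, 0.88. Genes of gastric epithelium were mixed too, with 4 of 13 higher, 2 lower and 7 not passing, beside the same background. *Gkn2* had 3.57 and *Gkn1* 3.06, both gastrokines of surface mucous cells, and *Tff2*, a trefoil factor of gastric glands, had -2.72. For *Gkn1* the limma adjusted p was 0.0472, and it was above the threshold under 13 of 23 other settings. For all these lists, which share the tumors and the epithelial shift given above, no test of the list was made.

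**Figure D5:**
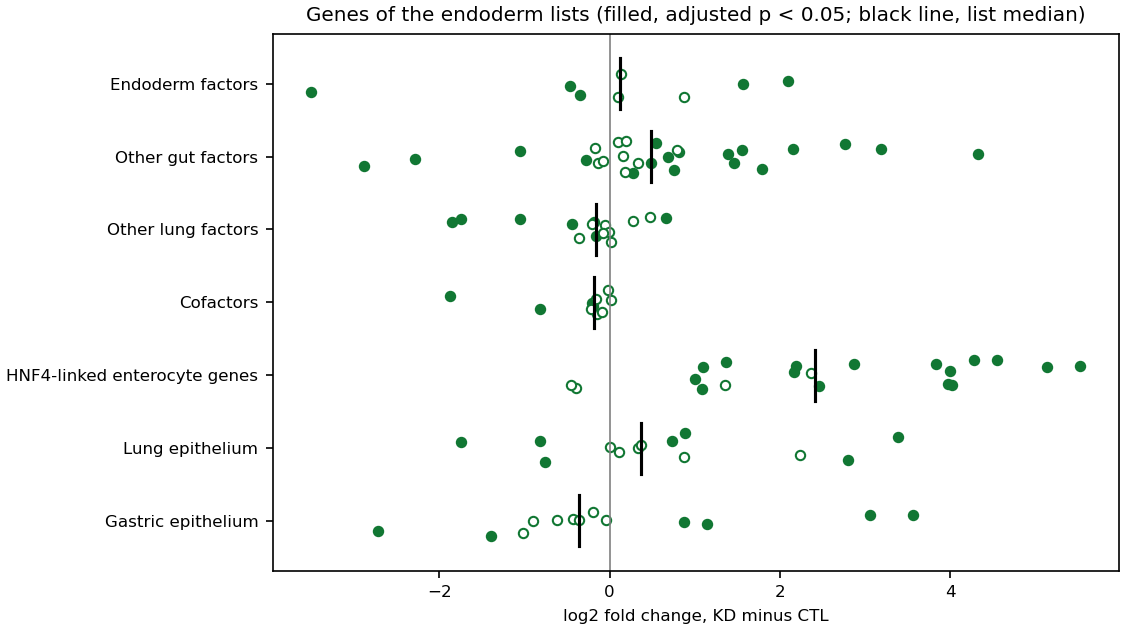
Log2 change, knockdown minus CTL (x axis), of each measured gene of the 8 factors and of 6 endoderm lists (rows), filled where the limma adjusted p is under 0.05, with a black line at the list's median. The HNF4-linked enterocyte genes have a median of 2.41 and 0 that passed on the lower side, while further lung factors and cofactors have medians of -0.16 and -0.18.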

How the data were processed

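RNA from 12 tumors was sequenced by the authors with poly(A) selection and paired reads. Per the labels, Trimmomatic 0.36 trimmed the reads, STAR 2.5.2b aligned them and featureCounts of Subread 1.5.2 counted them per gene, and the submitters' processing notes name mm10. The authors divided the counts by DESeq2 size factors before they deposited them, so the deposited values are a normalized signal without correction for length. Every sample was mapped to a group by its label.

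Levels were analysed as log2 of the value plus 1 with limma 3.58.1 (trend of variance on mean, R 4.3.3), adjusted by Benjamini-Hochberg over 15687 genes. A filter at a mean of 5 removed 0 genes. The study's thresholds were kept, 0.05 for the adjusted p and 1 for the absolute log2 fold change. Single values were compared by exact two-sided permutation over 924 arrangements. The steps were tested on simulated data. For limma these were counts drawn independently for each gene and tumor, so they do not cover shifts shared by many genes of a tumor. Count models were not run. The values of every tumor were whole multiples of its smallest step. In 3 tumors that step lay close to 1, and whole reads were not taken as recovered with certainty. The step served only for depth, the read numbers of *Nkx2-1* and the floor of 3 reads, which covers counting error only. The p-values set the difference between the groups against the spread between tumors. Since the labels name no separate cell lines within a group, they do not cover how separately made lines would differ. Positions and exon lengths are from GENCODE vM21 (GRCm38), where 15661 of 15687 identifiers (99.8%) were found, and promoters from RefSeq.

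Alternatives were pseudocounts of 0.5 and 8, no filter or one at a mean of 20, other scalings, no variance trend, a replicate block, removal of chromosome medians or of GC and length trends, and each tumor left out. Levels relative to *Cdh1* were added after seeing the data. Same-numbered tumors did not deviate together (correlations -0.269 to 0.0990, each best with its own number in 0 of 6), so numbers were not used as pairs.

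The factors, lists and tests were chosen with earlier results of these data known. Genes named are the factors, their 3 nearest genes, of each list the 3 that passed with the largest change (mean at least 20), close relatives and partners of the factors, and *Filip1l*. Genes near a factor, family shares, and the cardiac and epithelial genes were named after their values were seen. A few genes of the lists are counted there and not reported by name, and 1 searched motif is not reported. List genes without values included *Cdx1*, *Atoh1* and *Nkx6-3*, *Foxp2* and *Grhl2*, *Nr0b2*, *Slc5a1*, *Sftpa1*, *Scgb1a1*, *Scgb3a2*, *Lamp3* and *Slc34a2*, and *Atp4a*, *Atp4b* and *Cblif*, which were not analysed here. Figures were drawn with matplotlib 3.10.9.

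Marker lists gave these counts, of those measured: epithelium 5 of 6 higher, fibroblast 2 of 8 lower, smooth muscle 1 of 6 lower, endothelium 5 of 6 higher, macrophage 1 of 6 higher, neutrophil 5 of 5 higher, skeletal muscle 7 of 8 higher, cardiac muscle 1 of 4 higher, adipocyte 2 of 4 higher, epidermis 2 of 4 lower, Schwann cell 1 of 4 higher and mesothelium 1 of 2 higher. All other markers did not pass. Over all genes tested 21.1% rose and 20.7% fell.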

Additional observations from a re-analysis of the deposited data

Results flagged for a closer look

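In 140 groups of 6 tumors, those of the factors, of the list genes and nearest genes chosen by rule and of the genes named after their values were seen, the highest or lowest tumor was set apart from the rest by more than Dixon's critical value of 0.625 in 13. Chance gives about 1 in 20 groups, and the genes are not independent of each other.

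*Gata4* was lowest in knockdown replicate 1, with 237 normalized counts where the next knockdown tumor had 460.2. *Cdhr2*, a brush border cadherin, was also lowest in that tumor, with 271 normalized counts and 582 in the next. *Nr5a2* was lowest in knockdown replicate 4, with 77.4 normalized counts and 152 in the next. *Apoa4* and *Sftpb* were both highest among CTL tumors in replicate 5, *Apoa4* with 196 normalized counts and 56.4 in the next, and *Sftpb* with 94.1 and 27.3. In knockdown replicate 5, *Tff2* was highest of its group with 1000.4 normalized counts and 396 in the next, and *Pdx1* was lowest with 182 and 248 in the next.

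Among the genes nearest to a factor, *Pax6* was highest in knockdown replicate 1, with 88.7 normalized counts and 35.5 in the next, and in the same tumor *Tada2b* was lowest with 552 and 619.7 in the next, and *Glul* lowest with 5505 and 6784 in the next. *BC030870* was lowest in CTL replicate 2, with 217 normalized counts and 317 in the next. *Nppa*, a cardiac gene, was highest in CTL replicate 4, with 240.2 normalized counts and 40.0 in the next, and in knockdown replicate 6, with 361 and 84.7 in the next.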

How the results depend on the processing

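The sign of no factor turned under the 23 other settings, though *Foxa1* came to 0.00088 with GC and length trends removed (limma adjusted p = 0.996), and 1 call changed. Without knockdown replicate 1, *Hnf4a* passed with a log2 fold change of 0.19 (limma adjusted p = 0.0183), and 3 factors were higher in place of 2. The counts of lower factors (3) and of factors past the fold threshold (2 higher, 1 lower) did not move. With 1 tumor left out, log2 fold changes ran from -3.79 to -3.31 for *Sox2*, 1.95 to 2.20 for *Hnf4g*, 1.49 to 1.74 for *Gata4*, -0.50 to -0.41 for *Foxa2*, -0.38 to -0.31 for *Gata6*, 0.10 to 0.19 for *Hnf4a*, 0.04 to 0.17 for *Foxa1* and 0.35 to 1.27 for *Nkx2-1*. With the replicate block no call among the factors changed, and *Sox2* had a limma adjusted p of 0.000127, *Hnf4g* 8.06e-05, *Gata4* 0.000184, *Foxa2* 0.00105 and *Gata6* 0.00450. *Sftpb* (0.0830) and *Gkn1* (0.0515) no longer passed with the block. With GC and length trends removed, *Zfpm1* (0.084) and *Foxa3* (-0.049) changed sign, and relative to *Cdh1* *Filip1l* no longer passed (-0.27, limma adjusted p = 0.131). The cause was not tested. *Nkx2-1* held 1 read in its lowest tumor and from 5 to 87 reads among knockdown tumors.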
